A study of Arabidopsis thaliana with 38 samples.

Results

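The class B and class C auxin response factors (ARFs) of Arabidopsis thaliana were examined in nuclei of the early embryo. The 10 genes were chosen by locus and gene class, with no threshold on their values. They were the class B genes ARF1 (AT1G59750), ARF2 (AT5G62000), ARF3 (also ETTIN, AT2G33860), ARF4 (AT5G60450), ARF9 (AT4G23980), ARF13 (AT1G34170) and ARF18 (AT3G61830), and the class C genes ARF10 (AT2G28350), ARF16 (AT4G30080) and ARF17 (AT1G77850). Each of the 10 had a value among the 27826 loci on every array.

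Nuclear RNA was hybridised to 38 one-colour arrays, each a pool of embryo nuclei tagged in a cell type and purified by INTACT, in which a tagged nuclear envelope lets the nuclei of chosen cells be captured. At 72 h after hand pollination, the 16-cell stage, the groups were inner lower tier cells (ILT_16C, n = 3) and whole embryo (EMB_16C, n = 3). At 81 h, early globular, they were vascular cells (VSC_EG, n = 4), ground tissue cells (GSC_EG, n = 4), suspensor (SUS_EG, n = 3) and whole embryo (EMB_EG, n = 4). At 100 h, late globular, they were vascular cells (VSC_LG, n = 4), ground tissue cells (GSC_LG, n = 3), suspensor (SUS_LG, n = 3), quiescent centre (QC_LG, n = 3) and whole embryo (EMB_LG, n = 4). The plants of all groups were grown on soil at 22 °C with 16 h of light a day. Neither the genotype nor the promoters that drove the nuclear tags are stated in the sources used here. Each replicate was a biological pool, and the p-values reflect only how far such pools differ. In such bulk samples, fewer nuclei that express a gene and less RNA per nucleus cannot be told apart.

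ARFs are transcription factors that bind auxin response elements in the promoters of auxin-regulated genes. Class A members activate transcription, whereas class B and class C members mostly repress it in reporter assays and can occupy the same elements without releasing them to auxin. Many members also have a C-terminal PB1 domain through which they meet the Aux/IAA repressors that auxin degrades, but ARF3 and ARF17 lack it. Small RNAs restrict several of these transcripts: trans-acting short interfering RNAs made from TAS3 target ARF2, ARF3 and ARF4, and the microRNA miR160 targets ARF10, ARF16 and ARF17.

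The labels were checked against marker genes. Against the whole embryo of the same stage, limma called none of 6 vascular markers in VSC_EG or VSC_LG, none of 5 ground tissue markers in GSC_EG or GSC_LG, none of 4 suspensor markers in SUS_EG or SUS_LG and none of 5 quiescent centre and root meristem markers in QC_LG. By mean, several lists ran against the labels: the vascular markers averaged 3.77 in VSC_LG, against 4.06 in EMB_LG, and the ground tissue markers 2.77 in GSC_EG, against 3.08 in EMB_EG. The quiescent centre and root meristem markers averaged 3.00 in QC_LG, against 2.95 in EMB_LG and 3.36 in GSC_LG. WOX5, the homeobox gene that defines the quiescent centre, was higher in QC_LG than in SUS_LG (2.02, adjusted p = 0.0362). Of 8 endosperm markers, 6 to 8 lay below the array median in each group, whereas the means of the 8 seed coat markers were between 4.01 and 5.32. Pollen markers averaged between 2.94 in EMB_EG and 7.19 in QC_LG, and AGP6, AGP11, VGD1 and RALFL19 passed as higher in QC_LG than in EMB_LG. No chip pair was a duplicate, the highest correlation being 0.896.

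All values of single genes are log2 intensities and all differences are differences of log2 intensity. Levels of different genes come from different probes and were not set against each other. Over all 11 groups, limma's F test with Benjamini-Hochberg adjustment over 27826 loci called 1 of the 10 genes, ARF3, while it called 9.56% of all loci at an adjusted p under 0.05. In the 25 comparisons of 2 groups, 7 of 250 tests of these genes passed, against 0.726% of the tests of all loci. Of those 7, ARF3 accounted for 6 and ARF17 for 1, and 47 of the 250 (18.8%) had an unadjusted p under 0.05, as did 11% of the tests of all loci. ARF3 was higher in ground tissue at the late globular stage than in each of the other 4 groups of that stage, and it was higher at that stage than at the early globular stage in both ground tissue and vascular cells. ARF17 was lower in early globular vascular cells than in the whole embryo of that stage. The other 8 genes passed no comparison.

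**Figure D1:**
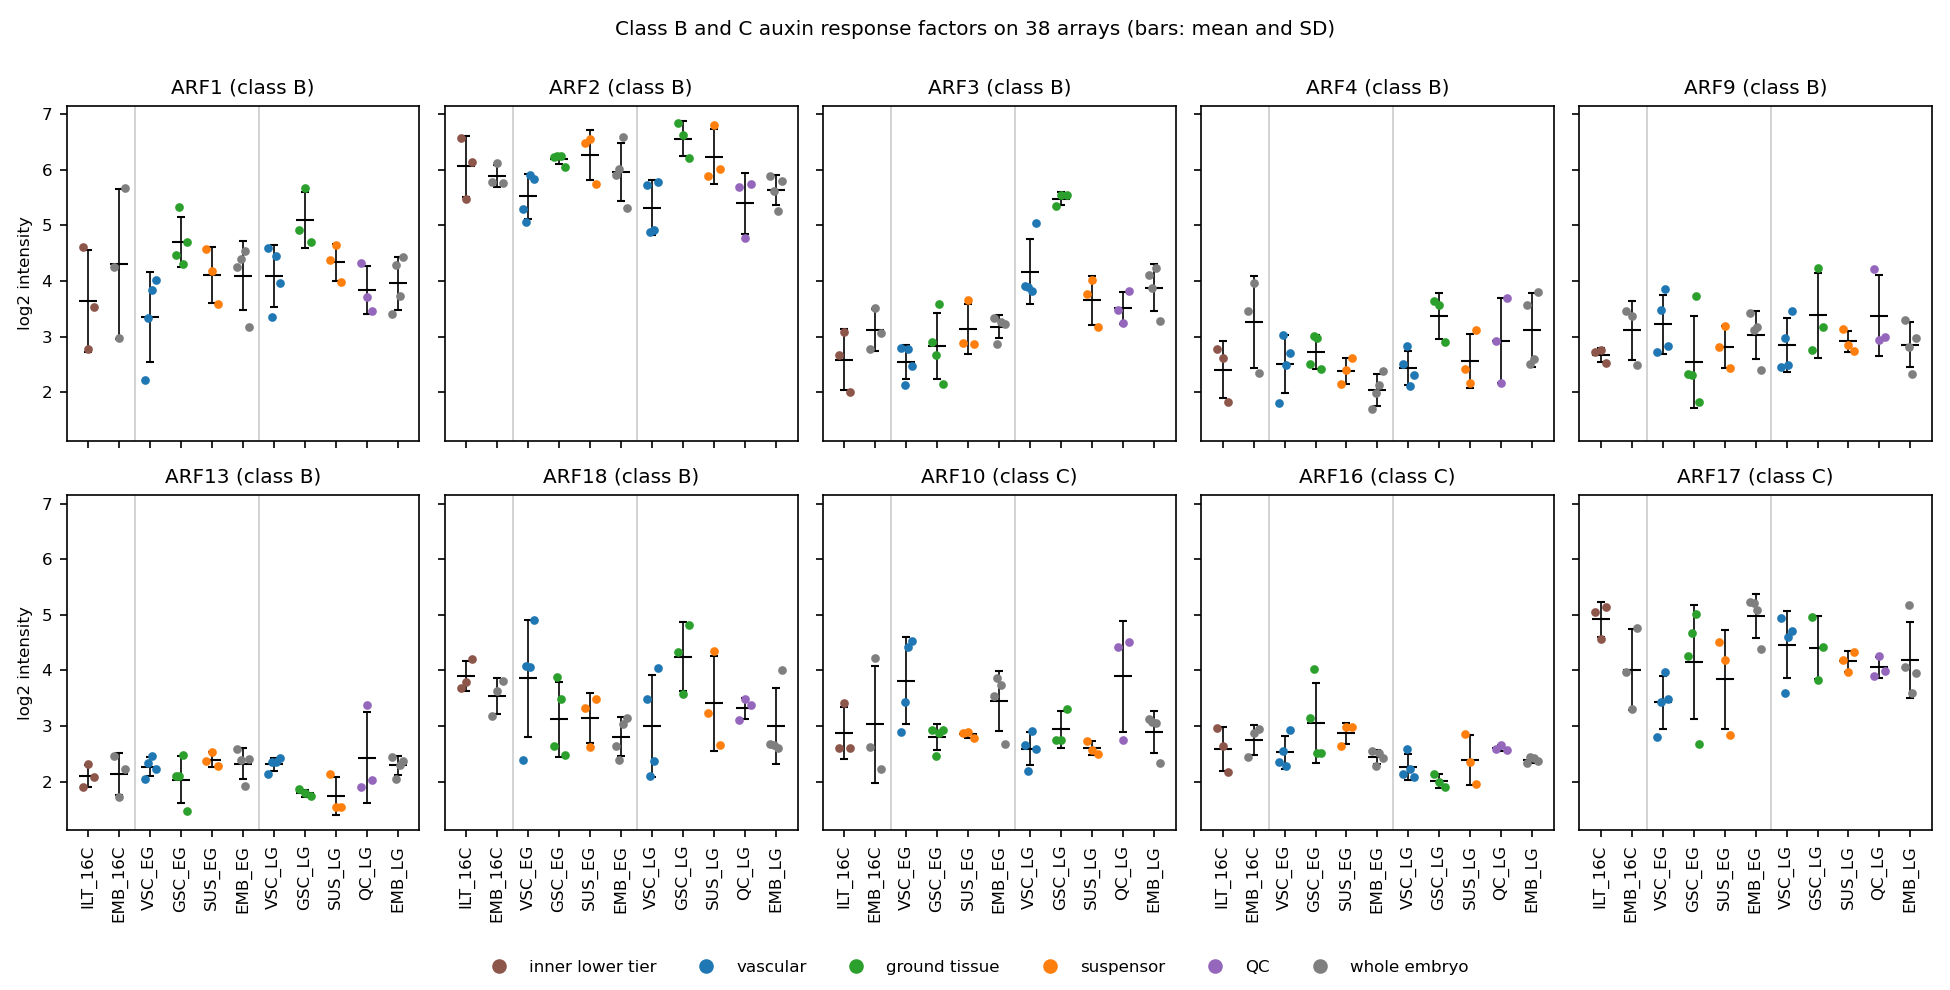
Log2 intensity of the 10 class B and class C ARFs on each of the 38 arrays (points) with the mean and SD of each group (bars), 1 panel a gene, in order of stage with the whole embryo last within each stage. The 3 late globular ground tissue arrays of ARF3 lie between 5.34 and 5.55, above each of the other 35 arrays, whereas the groups of the other genes mostly overlap.

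ARF3 encodes ETTIN, which patterns the gynoecium and, with ARF4, gives leaves their abaxial side. At the 16-cell stage it read 2.67, 3.08 and 2.00 on the ILT_16C arrays, against 2.77, 3.52 and 3.06 on the EMB_16C arrays. In early globular embryos it read 2.79, 2.13, 2.77 and 2.46 in vascular cells, 2.91, 2.68, 3.59 and 2.15 in ground tissue and 2.88, 3.65 and 2.87 in the suspensor, against 3.34, 2.87, 3.26 and 3.23 in the whole embryo. The 4 VSC_EG arrays all lay just below the 4 EMB_EG and the 3 SUS_EG arrays, and the other early globular groups overlapped one another. In late globular embryos it read 3.92, 3.89, 3.82 and 5.05 in vascular cells, 5.34, 5.55 and 5.54 in ground tissue, 3.77, 4.02 and 3.17 in the suspensor and 3.48, 3.24 and 3.82 in the quiescent centre, against 4.11, 3.88, 4.24 and 3.29 in the whole embryo. The 3 GSC_LG arrays stood above every other array, and the nearest was VSC_LG 4, which stood apart from the other 3 arrays of its own group.

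The F statistic of ARF3 over the 11 groups was 11.9, with an adjusted p of 1.12e-05 by limma. Its group means ran in the order GSC_LG (5.48 ± 0.115), VSC_LG (4.17 ± 0.587), EMB_LG (3.88 ± 0.422), SUS_LG (3.65 ± 0.436), QC_LG (3.51 ± 0.289), EMB_EG (3.18 ± 0.209), SUS_EG (3.14 ± 0.448), EMB_16C (3.12 ± 0.378), GSC_EG (2.83 ± 0.595), ILT_16C (2.58 ± 0.544) and VSC_EG (2.54 ± 0.311), each mean ± SD. All 5 late globular means were above all 6 earlier ones. Between neighbours in this order, the arrays of GSC_LG and VSC_LG did not overlap, and those of the other 9 pairs did.

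**Figure D2:**
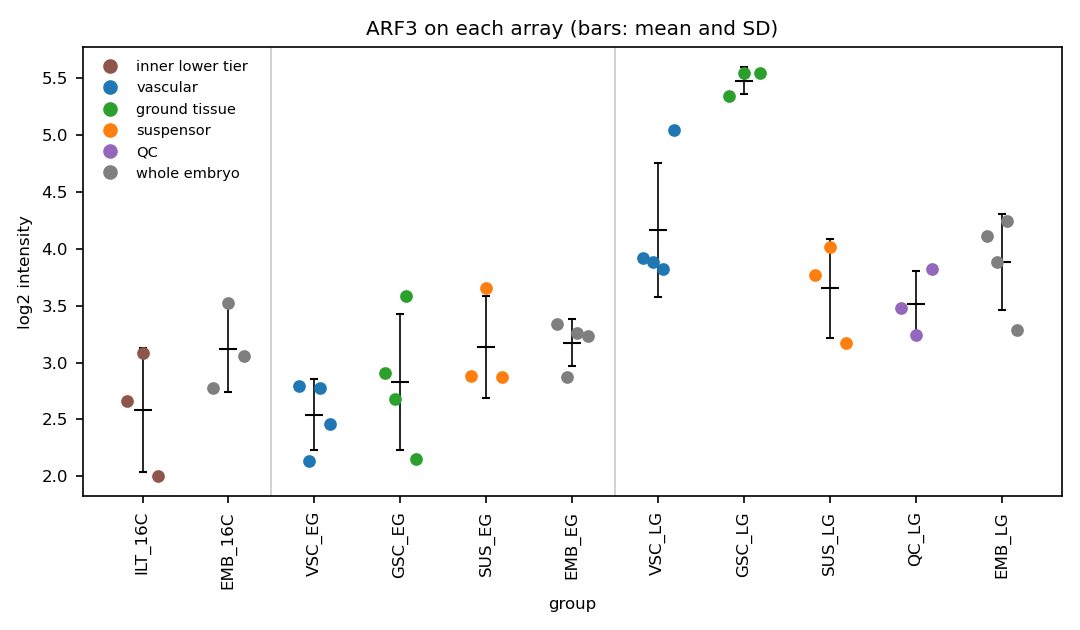
Log2 intensity of ARF3 on every array, grouped by stage (72 h, 81 h and 100 h after pollination), with points for arrays and bars for the mean and SD of each group. The late globular ground tissue arrays lie highest, and VSC_LG 4, at 5.05, stands apart from the other vascular arrays of that stage at 3.82 to 3.92.

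Each cell type was compared with the whole embryo of its stage to ask where a gene is enriched. In these 8 comparisons, 2 of 80 tests of the ARFs passed and 10 (12.5%) had an unadjusted p under 0.05, where over all loci 0.953% of tests passed and 11.4% had an unadjusted p under 0.05. ARF3 was 3.02-fold higher in late globular ground tissue than in the whole embryo, a difference of 1.60 (SE 0.337, 95% interval 0.91 to 2.28, limma adjusted p = 0.0211, 3 arrays against 4). It was 1 of 10 members called there, where 0.449% of loci passed. The call was lost without any of the 3 GSC_LG arrays (adjusted p = 0.0639, 0.114 and 0.0712 without arrays 1, 2 and 3) and without EMB_LG 2 (0.053) or EMB_LG 4 (0.0577), at differences of 1.40 to 1.66. It was also lost in a fit of the 7 arrays alone (adjusted p = 0.0587), after quantile normalization (1.29, adjusted p = 0.094) and with each array's spread as a covariate (1.43, adjusted p = 0.193). The interquartile range of log2 intensity averaged 1.79 over the GSC_LG arrays and 1.33 over the EMB_LG arrays, and its part in the result was not tested in another way.

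In the same comparison the arrays of ARF1, ARF2 and ARF3 all lay higher in GSC_LG than in EMB_LG, and those of ARF13 and ARF16 all lay lower, 5 of 10 genes against 14.4% of loci whose arrays did not overlap. ARF13 and ARF16 were dim there: in both groups their values lay below the medians of their arrays (2.47 to 2.54 in GSC_LG and 2.54 to 2.61 in EMB_LG). ARF1 read 4.92, 5.68 and 4.71 in GSC_LG, against 3.41, 4.28, 3.72 and 4.42 in EMB_LG (difference 1.14, adjusted p = 0.323 by limma). ARF2 read 6.84, 6.64 and 6.22 in GSC_LG, against 5.88, 5.61, 5.27 and 5.80 in EMB_LG (difference 0.92, adjusted p = 0.229 by limma). Neither passed the test, nor did ARF18 at 4.34, 3.58 and 4.81 in GSC_LG, against 2.68, 2.66, 2.61 and 4.01 in EMB_LG (difference 1.25, adjusted p = 0.273 by limma). The median of the 10 differences was 0.39, where that of all loci was -0.10, and 8 of the 10 were above 0 against 42.5% of loci.

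Other lists moved with this comparison. The mean of 5 ground tissue marker genes was 4.03 in GSC_LG (3.80 to 4.38 between arrays), against 3.47 in EMB_LG (3.15 to 3.70), although none of the 5 passed by limma and SCARECROW (SCR), a GRAS factor of ground tissue division, came nearest at 1.68 (adjusted p = 0.0854). The lists of other tissues also had higher means in GSC_LG. The vascular markers averaged 4.39 in GSC_LG and 4.06 in EMB_LG, and the suspensor markers 2.90 in GSC_LG and 2.66 in EMB_LG. The quiescent centre and root meristem markers averaged 3.36 in GSC_LG and 2.95 in EMB_LG, and the protoderm markers 5.66 in GSC_LG and 5.39 in EMB_LG. For each of these 5 lists GSC_LG had the highest mean of the 11 groups. Among 10 stress response genes, 9 were above 0 and 1, the heat shock factor HSFA2, rose in GSC_LG (2.26, adjusted p = 0.0333), and the list's mean was 4.93 in GSC_LG (4.70 to 5.29) and 3.33 in EMB_LG (3.10 to 3.61). The 8 seed coat markers, which were bright in every group, averaged 4.01 in GSC_LG (3.95 to 4.08) and 4.40 in EMB_LG (4.21 to 4.63), with none called and 2 of 8 above 0. The part of these lists in the ARF3 difference was not tested.

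ARF17, a class C gene known from adventitious rooting and anther development, gave the other call. It read 2.81, 3.43, 3.97 and 3.49 in early globular vascular cells, against 5.23, 5.21, 5.09 and 4.38 in the whole embryo. The groups did not overlap, and the mean was 2.94-fold lower in VSC_EG (difference -1.55, SE 0.423, 95% interval -2.41 to -0.69, limma adjusted p = 0.0437, 4 arrays each). There 1 of 10 members was called, where 2.15% of loci passed. The call was lost without each of the 4 VSC_EG arrays and without EMB_EG 1, 2 or 3 (adjusted p up to 0.127, without EMB_EG 1), and was kept without EMB_EG 4 (0.0358).

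ARF3 was the only other member whose arrays did not overlap between VSC_EG and EMB_EG, 2 of 10 against 7.65% of loci, with a difference of -0.63 (95% interval -1.27 to 0.00, adjusted p = 0.33 by limma). ARF18 stood the other way at 2.39, 4.07, 4.06 and 4.91 in VSC_EG, against 2.64, 2.39, 3.04 and 3.15 in EMB_EG (difference 1.05, adjusted p = 0.241 by limma), and passed only when VSC_EG 1, its lowest vascular array, was left out. Of the 10 stress response genes, 2 rose in VSC_EG by limma, WRKY40 (3.39, adjusted p = 0.00242) and JAZ7 (2.64, adjusted p = 0.00124), and the list averaged 4.82 in VSC_EG (4.44 to 5.21) and 3.38 in EMB_EG (3.18 to 3.60). The 6 pollen markers averaged 3.96 in VSC_EG (3.27 to 4.44) and 2.94 in EMB_EG (2.43 to 3.34), with none called. Their part in the ARF17 difference was not tested.

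By mean, VSC_EG was the lowest of the 4 early globular groups for ARF17, and QC_LG the lowest of the 5 late ones. At the 16-cell stage it read 5.04, 4.56 and 5.15 in ILT_16C, against 3.98, 3.31 and 4.76 in EMB_16C. In early globular ground tissue it read 4.25, 4.68, 5.01 and 2.68, and in the suspensor 4.51, 4.19 and 2.83, so that GSC_EG 4 and SUS_EG 3 lay far below the other arrays of their groups. In late globular vascular cells it read 4.94, 3.59, 4.61 and 4.72, against 4.06, 5.17, 3.60 and 3.95 in the whole embryo, and these groups overlapped. The vascular difference from the whole embryo was 1.82 higher at the late than at the early stage, which did not pass (SE 0.598, 95% interval 0.61 to 3.04, limma adjusted p = 0.419).

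No member passed in the other 6 comparisons with the whole embryo by limma. The background there was 0.449% of loci for ILT_16C, 1.12% for GSC_EG, 0.198% for SUS_EG, 0.787% for VSC_LG, 0.967% for SUS_LG and 1.5% for QC_LG.

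**Figure D3:**
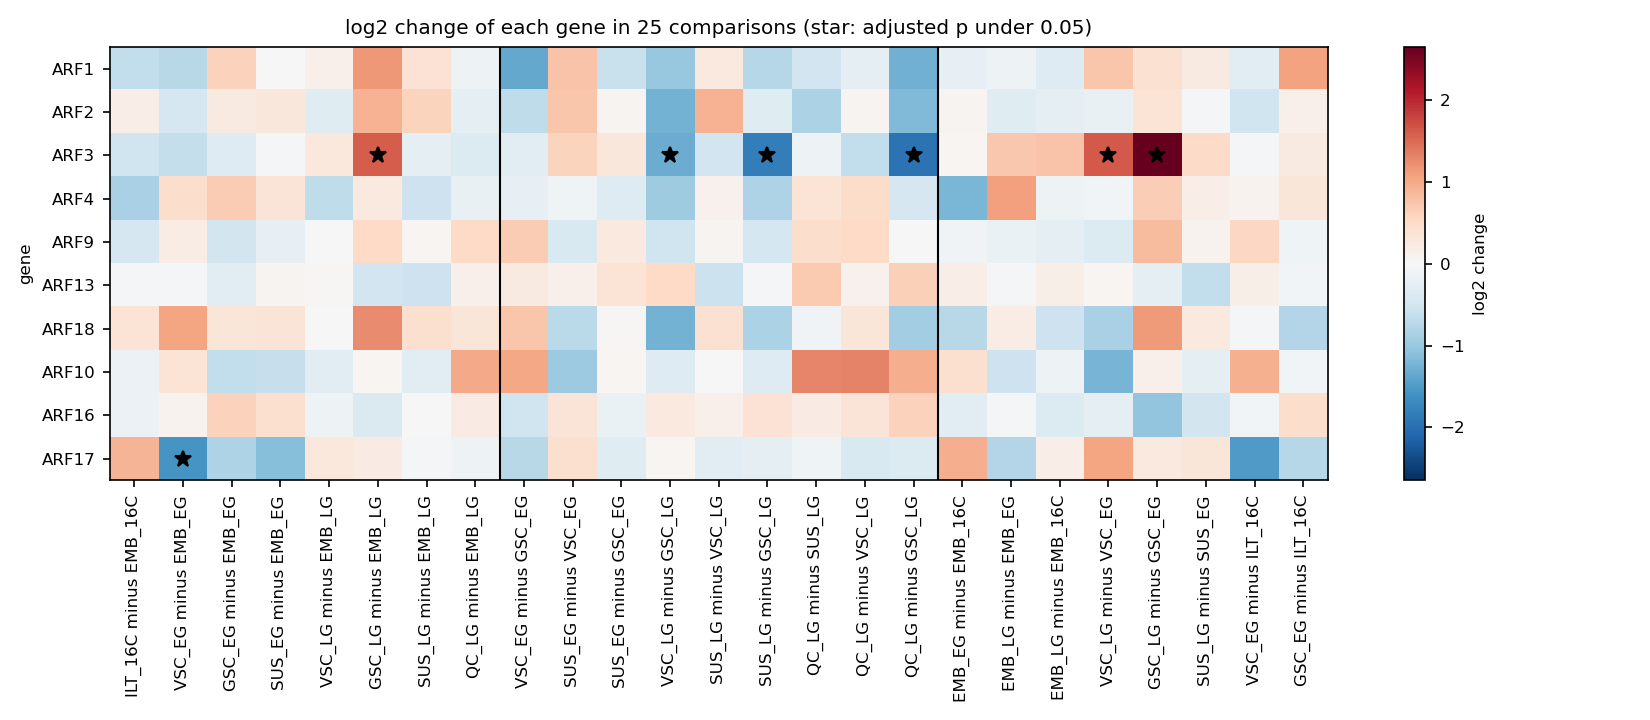
Log2 difference of the 10 ARFs in each of the 25 comparisons of 2 groups (rows are genes, columns are comparisons, colour gives the difference of the first group minus the second), with calls at an adjusted p under 0.05 marked. The 7 marks fall on ARF3, with differences of -1.96 to 2.65, and on ARF17, at -1.55.

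Cell types of a stage were then compared with each other, and 3 of 90 tests passed, against 0.73% of the tests of all loci. Of the 90, 21 (23.3%) had an unadjusted p under 0.05, against 11.6% over all loci. At the late globular stage ARF3 was lower in each of the 3 cell types set against ground tissue, and these 3 calls share the GSC_LG arrays with each other and with the comparison to the whole embryo. In vascular cells the difference from ground tissue was -1.31 (SE 0.337, 95% interval -2.00 to -0.62, limma adjusted p = 0.0446), 1 of 10 members where 1.24% of loci were called. In the suspensor it was -1.82 (SE 0.361, 95% interval -2.56 to -1.09, limma adjusted p = 0.00759), again 1 of 10 where 1.24% of loci were called. In the quiescent centre it was -1.96 (SE 0.361, 95% interval -2.70 to -1.23, limma adjusted p = 0.00311), 1 of 10 where 3.09% of loci were called. The quiescent centre call held without any single array of the 2 groups, with adjusted p up to 0.0243, and was lost in a fit of their arrays alone (0.0578). The suspensor call was lost without GSC_LG 2 (adjusted p = 0.0517) or SUS_LG 3 (0.0566). The vascular call held only without VSC_LG 4, where the difference was -1.60 (adjusted p = 0.0169), and without another array its adjusted p reached 0.188, without GSC_LG 2. It was also lost in 5 of 8 other settings.

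Markers of ground tissue and of other tissues moved with these comparisons. The 6 pollen markers averaged 6.85 in VSC_LG (6.04 to 8.05), 5.69 in SUS_LG (5.10 to 6.78) and 7.19 in QC_LG (5.64 to 8.53), against 4.48 in GSC_LG (3.99 to 4.77), so that the ranges over arrays did not overlap. The 8 seed coat markers averaged 4.47 in VSC_LG (4.08 to 5.16), 5.32 in SUS_LG (4.95 to 5.77) and 4.50 in QC_LG (4.24 to 4.68), against 4.01 in GSC_LG (3.95 to 4.08). Other lists were highest in GSC_LG. In the same order, the protoderm markers averaged 4.43, 4.67 and 4.42, against 5.66, and the vascular markers 3.77, 3.33 and 3.69, against 4.39. The ground tissue markers averaged 3.14, 3.10 and 3.14, against 4.03, and the suspensor markers 2.77, 2.67 and 2.57, against 2.90. The quiescent centre and root meristem markers averaged 2.44, 2.46 and 3.00, against 3.36. The stress response list averaged 5.30, 4.49 and 3.91, against 4.93. The part of these lists in the ARF3 differences was not tested.

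ARF3 did not pass between the other late cell types. It differed by -0.51 between suspensor and vascular cells (95% interval -1.20 to 0.17), by -0.14 between quiescent centre and suspensor (95% interval -0.87 to 0.59) and by -0.65 between quiescent centre and vascular cells (95% interval -1.34 to 0.03). The background in these comparisons was 0.0144%, 0.101% and 0.0683% of loci, in the same order.

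ARF2, known from organ growth, seed size and senescence, came nearest to a further call. It read 5.73, 4.87, 4.91 and 5.78 in late vascular cells and 5.69, 4.77 and 5.74 in the quiescent centre, against 6.84, 6.64 and 6.22 in ground tissue. The ground tissue arrays were above all of these. The difference from ground tissue was -1.24 in vascular cells (SE 0.332, 95% interval -1.92 to -0.57, limma adjusted p = 0.0514) and -1.17 in the quiescent centre (SE 0.355, limma adjusted p = 0.0625). The quiescent centre value leaned on QC_LG 2, at 4.77: without that array the QC_LG mean was 5.71 instead of 5.40. Without VSC_LG 4 the vascular difference passed, at -1.39 (adjusted p = 0.0427), and with each array's spread as a covariate it was -0.56 (adjusted p = 0.614).

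Between vascular cells and ground tissue at the late stage, 5 of the 10 genes had groups that did not overlap, against 17.5% of loci: ARF1, ARF2, ARF3 and ARF4 lower and ARF13 higher in vascular cells. Between quiescent centre and ground tissue there were 6, against 23.2% of loci, with ARF1, ARF2, ARF3 and ARF18 lower and ARF13 and ARF16 higher in the quiescent centre. Between suspensor and ground tissue there were 3, against 20.1% of loci, namely ARF1, ARF3 and ARF10, all lower in the suspensor. The interquartile range averaged 1.28 over VSC_LG, 1.41 over SUS_LG and 1.28 over QC_LG, against 1.79 over GSC_LG, and all-loci median differences from ground tissue were 0.11, 0.10 and 0.12 in the same order. The medians of the 10 genes were -0.73, -0.40 and -0.40.

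No member passed between cell types at the early globular stage. The background was 0.74% of loci for VSC_EG against GSC_EG, 0.0575% for SUS_EG against VSC_EG and 0.0252% for SUS_EG against GSC_EG. ARF1 read 2.22, 3.33, 3.84 and 4.01 in VSC_EG, against 4.47, 5.34, 4.31 and 4.70 in GSC_EG. ARF2 read 5.29, 5.07, 5.91 and 5.83 in VSC_EG, against 6.23, 6.25, 6.25 and 6.06 in GSC_EG (difference -0.67, limma adjusted p = 0.314). These 2 of 10 genes had groups that did not overlap, against 6.43% of loci, and the ARF1 difference of -1.36 did not pass (limma adjusted p = 0.143).

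**Figure D4:**
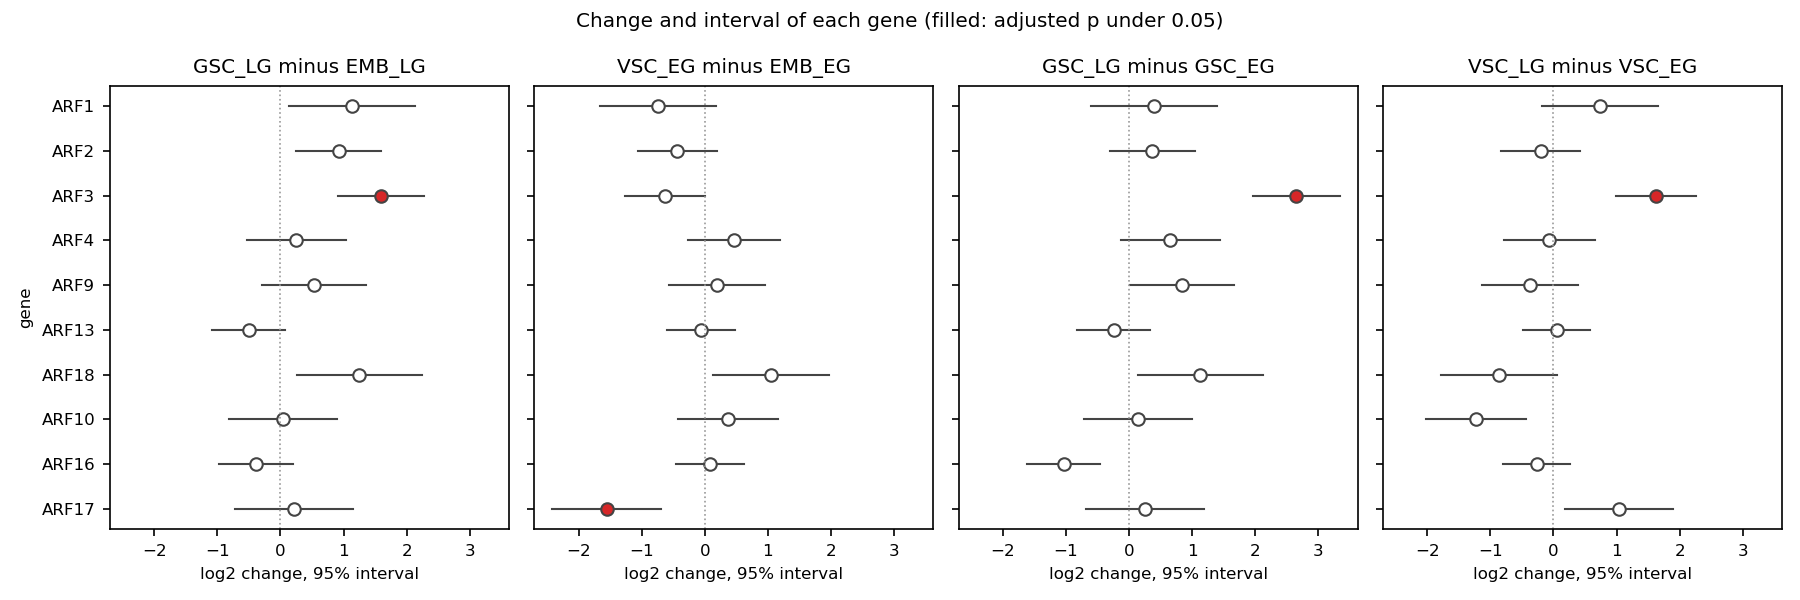
Log2 differences of the 10 ARFs with 95% intervals from limma, in 4 comparisons: GSC_LG minus EMB_LG, VSC_EG minus EMB_EG, GSC_LG minus GSC_EG and VSC_LG minus VSC_EG (points are differences, filled where the adjusted p was under 0.05, lines are intervals, and the dotted line is 0). The interval of ARF3 lies wholly above 0 for ground tissue against whole embryo (0.91 to 2.28) and for late against early ground tissue (1.96 to 3.33).

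Stages were compared within each cell type and within the whole embryo, and 2 of 80 tests passed, against 0.493% of the tests of all loci. Of the 80, 16 had an unadjusted p under 0.05, against 9.85% of the tests of all loci. The change of ARF3 in ground tissue had the smallest adjusted p of all 250 tests. It read 5.34, 5.55 and 5.54 in GSC_LG, against 2.91, 2.68, 3.59 and 2.15 in GSC_EG, and rose 6.27-fold. The GSC_EG values lay at percentiles 36.3 to 72.7 of all loci on their arrays, so this fold starts from a low level. The difference was 2.65 (SE 0.337, 95% interval 1.96 to 3.33, limma adjusted p = 3.8e-05), 1 of 10 members where 1.47% of loci passed. It held without any single array of the 2 groups (differences of 2.42 to 2.90, adjusted p up to 0.00085). In vascular cells ARF3 rose 3.09-fold, by 1.63 (SE 0.312, 95% interval 0.99 to 2.26, limma adjusted p = 0.00719), 1 of 10 where 1.1% of loci passed. There the VSC_EG values also started low, at percentiles 29.6 to 58.9 of their arrays. Without VSC_LG 4, the high array, the difference was 1.33 (adjusted p = 0.041), and in a fit of the 8 arrays alone the call was lost (0.0729).

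In the suspensor the stage difference of ARF3 was 0.52 (95% interval -0.22 to 1.25, adjusted p = 0.85 by limma). In the whole embryo it was 0.71 between late and early globular stages (95% interval 0.07 to 1.34, adjusted p = 0.527 by limma), 0.06 between the early globular and 16-cell stages (95% interval -0.63 to 0.74) and 0.76 between the late globular and 16-cell stages (95% interval 0.08 to 1.45, adjusted p = 0.589 by limma). Neither VSC_EG nor GSC_EG differed from ILT_16C beyond the test, at -0.04 (95% interval -0.73 to 0.64) and 0.25 (95% interval -0.44 to 0.93). The background was 0.359% of loci for the suspensor, 0.111%, 0.187% and 0.237% for the 3 whole-embryo comparisons as listed, and 0.41% and 0.0755% for the last pair.

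A direct test asked whether the contrast of a cell type to the embryo changed with stage. For ground tissue the difference of ARF3 was 1.94 higher at the late stage (SE 0.460, 95% interval 1.01 to 2.88, limma adjusted p = 0.217) and for vascular cells it was 0.92 higher (adjusted p = 0.63). None of these 30 tests passed and 5 (16.7%) had an unadjusted p under 0.05, where over all loci 0.0024% of tests passed and 6.93% had an unadjusted p under 0.05. The background was 0 for vascular cells, 0 for ground tissue and 0.00719% for the suspensor, so few loci of any kind passed these tests.

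Marker lists also moved with the stage comparisons. Of 5 ground tissue markers, SCR (2.41, adjusted p = 0.00269) and the zinc finger factor JACKDAW (JKD, 2.21, adjusted p = 0.00287) rose in GSC_LG by limma, and the list averaged 4.03 in GSC_LG and 2.77 in GSC_EG (2.54 to 2.93). Of 4 protoderm markers, PDF1 rose (2.05, adjusted p = 0.0215), and that list averaged 5.66 in GSC_LG (5.43 to 5.89) and 4.37 in GSC_EG (4.04 to 4.85). Of 5 quiescent centre and root meristem markers, BBM rose (2.34, adjusted p = 0.0264 by limma), and that list averaged 3.36 in GSC_LG and 2.44 in GSC_EG. The stress response list averaged 4.93 in GSC_LG and 6.13 in GSC_EG (5.55 to 6.41), with 1 of 10 lower and called. In vascular cells 5 of 6 pollen markers rose, and their mean was 6.85 in VSC_LG (6.04 to 8.05) and 3.96 in VSC_EG. Of the stress response genes there, HSP70 rose (3.29, adjusted p = 0.00268) and JAZ7 fell (-2.39, adjusted p = 0.00585) by limma. The stress response list averaged 5.30 in VSC_LG and 4.82 in VSC_EG. The part of these lists in the ARF3 differences was not tested.

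ARF16, a class C gene that acts with ARF10 in root cap formation, came nearest to a fall between stages. It read 2.13, 1.99 and 1.90 in GSC_LG, against 3.14, 4.03, 2.51 and 2.51 in GSC_EG. The GSC_LG values all lay below the medians of their arrays (2.47 to 2.54). The groups did not overlap, as for ARF3, 2 of 10 genes against 11.8% of loci. The difference of -1.04 missed the threshold (SE 0.285, 95% interval -1.62 to -0.46, limma adjusted p = 0.0539). It passed without GSC_EG 3 or GSC_EG 4, and its adjusted p was 0.24 without GSC_EG 2.

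ARF4, which shares abaxial function with ARF3, was lowest in the early globular whole embryo and highest in late ground tissue. It read 3.64, 3.57 and 2.90 in GSC_LG, 2.51, 2.83, 2.11 and 2.31 in VSC_LG, 2.41, 2.17 and 3.11 in SUS_LG and 2.92, 2.16 and 3.69 in QC_LG, against 3.57, 2.51, 2.60 and 3.80 in EMB_LG. In EMB_EG it read 1.69, 1.98, 2.13 and 2.37, against 3.45, 3.97 and 2.35 in EMB_16C. The early whole-embryo arrays were mostly below both other stages, with EMB_EG 4 at the level of EMB_16C 3. The whole-embryo differences of -1.21 between the early globular and 16-cell stages (adjusted p = 0.229 by limma) and 1.08 between the late and early globular stages (adjusted p = 0.313 by limma) did not pass. ARF3 and ARF4 thus shared their highest group and not the rest of their order.

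ARF1 acts with ARF2 in senescence and flower abscission. Its group means ranged between 5.10 ± 0.508 in GSC_LG and 3.35 ± 0.806 in VSC_EG, with GSC_EG next to the top at 4.71 ± 0.451. The EMB_16C arrays alone spanned 2.98 to 5.67. ARF2 ranged between 6.56 ± 0.315 in GSC_LG and 5.32 ± 0.497 in VSC_LG, a span of 1.24. For both genes every pair of neighbouring groups overlapped, and neither passed the test over the 11 groups (adjusted p = 0.247 for ARF1 and 0.0825 for ARF2, limma F test).

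ARF9, ARF13 and ARF18 are class B genes, and ARF9 and ARF13 have been studied in the suspensor. ARF9 read 2.81, 3.19 and 2.43 in SUS_EG, against 3.42, 3.12, 3.17 and 2.40 in EMB_EG, and 3.13, 2.86 and 2.75 in SUS_LG, against 3.30, 2.82, 2.32 and 2.98 in EMB_LG. The groups overlapped at both stages, with differences of -0.22 (95% interval -1.04 to 0.61) and 0.06 (95% interval -0.77 to 0.88). ARF13 read 2.36, 2.54 and 2.29 in SUS_EG, against 2.58, 2.39, 1.92 and 2.40 in EMB_EG, and 2.14, 1.53 and 1.55 in SUS_LG, against 2.45, 2.05, 2.30 and 2.37 in EMB_LG. The late difference of -0.55 did not pass (95% interval -1.13 to 0.03, adjusted p = 0.503 by limma). ARF13 belongs to a cluster of near-identical class B genes on chromosome 1, with ARF12, ARF14, ARF15, ARF20, ARF21 and ARF22. Its values are uncertain to the extent that probes are shared, and its group means of 1.74 to 2.43 lay below all array medians (2.47 to 2.71).

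Beside these suspensor values, the mean of the 4 suspensor markers was 2.84 in SUS_EG (2.40 to 3.15), against 2.14 in EMB_EG (1.89 to 2.31), and 2.67 in SUS_LG (2.28 to 3.27), against 2.66 in EMB_LG (2.18 to 3.16). The pollen markers averaged 5.87 in SUS_EG, against 2.94 in EMB_EG, and 5.69 in SUS_LG, against 4.58 in EMB_LG. The stress response list averaged 5.84 against 3.38 and 4.49 against 3.33 in the same order, and the seed coat markers 4.83 against 4.89 and 5.32 against 4.40. Genes of the pollen and stress response lists passed in SUS_EG, and genes of the seed coat and stress response lists in SUS_LG, by limma. The part of these lists in the ARF9 and ARF13 values was not tested.

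ARF18 was highest in GSC_LG at 4.24 ± 0.621 and lowest in EMB_EG at 2.81 ± 0.352. The VSC_EG arrays spanned 2.39 to 4.91 and the EMB_LG arrays 2.61 to 4.01, so its spread within groups was wide, and its adjusted p over the 11 groups was 0.311 (limma F test).

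ARF10 had its highest means in QC_LG (3.89 ± 0.997) and VSC_EG (3.82 ± 0.791). It read 4.42, 2.74 and 4.51 in QC_LG, 2.66, 2.19, 2.91 and 2.59 in VSC_LG and 2.73, 2.57 and 2.50 in SUS_LG, against 3.12, 3.07, 3.05 and 2.33 in EMB_LG. Of the 3 quiescent centre arrays, 2 were above all the other late arrays, and QC_LG 2 was not. That array also had the lowest interquartile range of the 38, 1.03, and the lowest mean correlation with its own group, 0.635. The difference of ARF10 between quiescent centre and whole embryo was 1.00 (95% interval 0.15 to 1.85, limma adjusted p = 0.296). Without QC_LG 2, ARF10 passed the F test over the 11 groups, which it otherwise did not (adjusted p = 0.148). In vascular cells ARF10 read 2.66, 2.19, 2.91 and 2.59 at the late stage, against 2.89, 3.44, 4.43 and 4.52 at the early stage, a difference of -1.23 that did not pass (adjusted p = 0.12 by limma) but did without VSC_EG 1.

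Late ground tissue was the group with the highest mean for 6 of the 10 genes (ARF1, ARF2, ARF3, ARF4, ARF9 and ARF18), all of class B, where 12.6% of all loci were highest. This was not particular to class B. Of 5 class A ARFs, ARF5, ARF6 and ARF8 were highest there, as were TPL, TPR1, TPR3 and TPR4 of 5 genes of the TOPLESS co-repressor family. The further class B ARFs outside the 10 were each highest in another group. GSC_LG also had the widest arrays of any group, with a mean interquartile range of 1.79, and the part of this spread was not tested here. The quiescent centre was highest for ARF10 and ARF13, where 13.4% of loci were highest. For ARF13 this rested on QC_LG 2, at 3.37 beside 1.89 and 2.03. Without that array the QC_LG mean of ARF13 was 1.96 and 8 groups had a higher one, while for ARF9 QC_LG became the highest group, at 3.60. ARF16 was highest in GSC_EG, 3.05 ± 0.721, and ARF17 in EMB_EG, 4.98 ± 0.401. For 9 of these 10 genes the highest group overlapped the next, ARF3 being the exception, so the order rests on means.

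Other genes of auxin response and small RNA control were counted as whole lists over the 25 comparisons, in which 0.726% of the tests of all loci passed and 11% had an unadjusted p under 0.05. Of 5 class A ARFs, 1 was called in any comparison: ARF6 was lower in SUS_LG than in GSC_LG (-1.54, adjusted p = 0.0457). None of 29 Aux/IAA repressor genes, 8 GH3 genes, whose enzymes conjugate auxin, or 5 genes of the TOPLESS co-repressor family was called by limma, with 58 of 725, 22 of 200 and 9 of 125 tests at an unadjusted p under 0.05. Of 8 further class B ARFs, 2 were called in 4 of 200 tests (2%), each time higher. ARF22 was higher in VSC_LG than in EMB_LG (2.16, adjusted p = 0.0121) and than in GSC_LG (1.89, adjusted p = 0.0398). ARF14 was higher in QC_LG than in EMB_LG (2.23, adjusted p = 0.024) and than in GSC_LG (2.36, adjusted p = 0.0181), at a mean of 4.19 ± 1.58 in QC_LG. Both belong to the same cluster of near-identical genes as ARF13, so the source of their signal is uncertain.

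Of 5 genes of the trans-acting small interfering RNA pathway, 1 was called, in 1.6% of the list's tests against 0.726% over all loci: SGS3, which stabilises the cleaved precursor, was lower in VSC_LG (-1.52, adjusted p = 0.0387) and in QC_LG (-1.59, adjusted p = 0.0245) than in GSC_LG, by limma. Of 7 microRNA pathway genes, 2 were called, in 1.14% of the list's tests. AGO10, which sequesters miR165 and miR166, was lower in SUS_LG than in GSC_LG (-1.68, adjusted p = 0.0376), and AGO1, the main microRNA effector, was lower in QC_LG than in GSC_LG (-1.72, adjusted p = 0.0371). None of 8 precursor loci of MIR160, MIR390 and TAS3 passed a comparison by limma, with 13 of 200 tests at an unadjusted p under 0.05, where 11% of the tests of all loci were. Precursor values do not measure the mature small RNAs.

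Of 8 partners and targets of ETTIN, KAN1, an abaxial GARP factor that acts with ETTIN, had its highest late mean in GSC_LG, as ARF3 did. The order of the late groups below GSC_LG was not that of ARF3, and KAN1 arrays in GSC_LG spanned 3.35 to 6.26. The mean of KAN1 was 2.40 ± 0.297 in VSC_LG, 2.17 ± 0.173 in SUS_LG and 2.81 ± 0.0662 in QC_LG, against 4.89 ± 1.47 in GSC_LG, with differences of -2.49 (adjusted p = 0.00843), -2.73 (0.00644) and -2.08 (0.0211) by limma. Against the whole embryo, at 3.29 ± 0.864, the GSC_LG difference of 1.60 did not pass (adjusted p = 0.146). KNAT1, a homeobox gene that ETTIN represses in the gynoecium, was lower in GSC_LG than in GSC_EG (-1.46, adjusted p = 0.0343 by limma). Its GSC_LG mean of 1.85 lay below the medians of those arrays (2.47 to 2.54). Without a call, the KNAT1 mean was also lower late than early in vascular cells (2.41 against 3.22) and in the suspensor (2.28 against 3.26). In the whole embryo it was 2.51 late and 2.57 early. Any link between ARF3 and KNAT1 was not tested. The other 6 partners and targets of ETTIN passed in none of the 25 comparisons. Over the 8 genes 2% of 200 tests passed, against 0.726% of the tests of all loci.

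Across the 11 group means, the 3 loci most like ARF3 among 1237 with a symbol that passed the F test were JKD (AT5G03150, Pearson r = 0.971), GRF2 (AT4G37740, r = 0.959) and LEC1 (AT1G21970, r = 0.945). JKD is a ground tissue regulator, GRF2 a growth-regulating factor and LEC1 a regulator of embryo identity. These r are a description over 11 points, which share arrays, normalization and the difference in spread between arrays. JKD averaged 4.85 in GSC_LG and 3.71 in EMB_LG, and GRF2 5.94 in GSC_LG and 4.27 in EMB_LG. Among the 45 pairs of the 10 genes, r ranged between -0.77 for ARF3 with ARF16 and 0.68 for ARF1 with ARF2, with a median of 0.023, so the 10 genes did not share one pattern.

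**Figure D5:**
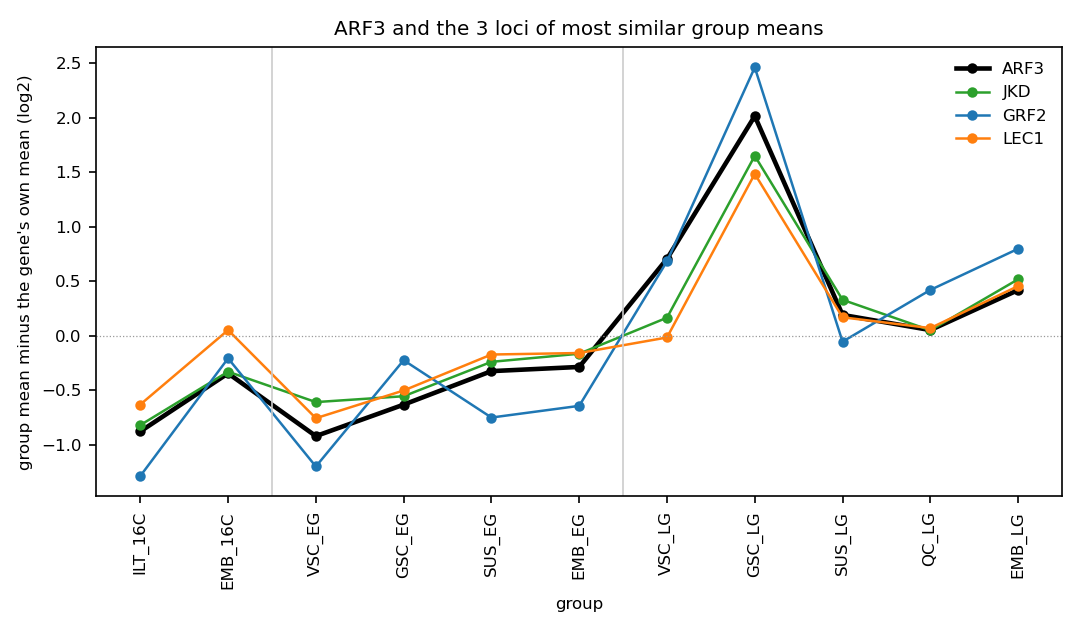
Mean log2 intensity of ARF3 and of the 3 loci most like it in each of the 11 groups, each minus its own mean over the groups. All 4 genes have their highest point in late globular ground tissue.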

How the data were processed

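RNA of purified nuclei was amplified as cDNA, labelled with biotin and hybridised, per the labels' protocols. The authors deposited linear intensity values, for which the submitters' processing notes name RMA, a method of background correction, normalization across arrays and probe summary. No source used here states the RMA version or how probes were assigned to loci. No detection calls were used. Precision is limited by the 3 or 4 arrays of each group.

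The log2 of these values, with no constant added, was fitted with limma (3.58.1, R 4.3.3) as 11 group means over 38 arrays, with eBayes and no covariate (27 residual and 6.79 prior degrees of freedom). P-values are two-sided, adjusted by Benjamini-Hochberg over 27826 loci within each comparison, and called at an adjusted p under 0.05. The script was tested on simulated data. Symbols came from RefSeq (TAIR10.1), which matched 27241 loci, and 10556 of them had a symbol. Every one of the 10 ARFs is named. Full values are given for called genes and, in a family of comparisons with under 2 called genes, for the 2 of smallest p. Array values of other genes are also printed in some uncalled comparisons, outside this rule. The 10 genes, the gene lists and the tests were chosen with earlier results of these data known.

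Same-numbered arrays did not deviate together: in 0 of 25 comparisons did every pair correlate above 0.1 (lowest -0.144, highest 0.208), so the numbers were not treated as pairs. Alternatives were the normalization, a pseudocount of 1, a filter on dim loci, array weights, a prior trend, fits of the compared arrays alone, the replicate block and leaving out each array. Array spread as a covariate was added after seeing the data.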

Additional observations from a re-analysis of the deposited data

Results flagged for a closer look

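In 6 of the 50 groups of 4 arrays of the 10 genes, 1 array stood far from the other 3, where chance gives about 1 in 20. ARF2 read 6.06 on GSC_EG 4, below the next array at 6.23, in a group of very small spread. ARF3 read 5.05 on VSC_LG 4, above the next at 3.92. ARF18 read 4.01 on EMB_LG 4, above the next at 2.68. ARF10 read 2.46 on GSC_EG 2, below the next at 2.88, and 2.33 on EMB_LG 4, below the next at 3.05. ARF17 read 4.38 on EMB_EG 4, below the next at 5.09, and without that array its difference between VSC_EG and EMB_EG was -1.75 (adjusted p = 0.0358 by limma). EMB_LG 4 was thus apart for ARF18 and ARF10.

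For 2 genes every array of a cell type lay on one side of the whole-embryo mean at one stage and on the opposite side at the other. The difference of ARF16 between ground tissue and whole embryo changed by -0.99 between the early and the late globular stage (SE 0.388, limma adjusted p = 0.641). The difference of ARF4 between suspensor and whole embryo changed by -0.90 (SE 0.546, limma adjusted p = 0.86). Neither passed the test of that change itself.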

How the results depend on the processing

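No result changed direction in any alternative run. Over the 11 groups, 1 gene was called, and 3 (ARF3, ARF4 and ARF10) with array weights. Against the whole embryo 2 calls became 1 after quantile normalization, with a prior trend, with the compared arrays alone and with array spread as a covariate. Between cell types 3 calls became 1, and between stages 2 calls became 1, with the compared arrays alone, and array weights gave 4 between stages, adding ARF10 in vascular cells and ARF16 in ground tissue. Leaving out 1 array gave 1 to 2 genes over the 11 groups, 1 to 2 calls against the whole embryo, 1 to 4 between cell types (1 without GSC_LG 2), 2 to 3 between stages and 0 to 0 in the stage differences. The replicate block gave 1 gene over the 11 groups and 2, 2, 2 and 0 calls, ending ARF3 in vascular cells against ground tissue (-1.28, adjusted p = 0.0632), and changed no other call of ARF3 or ARF17. ARF3 in late against early ground tissue kept its call in 8 of 8 other settings. The filter on dim loci kept 20869 loci and all 10 genes. The 0 calls in the stage differences held in all 9 settings. With 3 or 4 arrays a group, the smallest difference called for these genes was one of -1.31.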

Other observations

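The loci most like the next 3 genes in order of F were less like them than those of ARF3. For ARF4 they were EMB2777 (AT2G43650, r = 0.893), IQD6 (AT2G26180, r = 0.888) and SAP (AT5G35770, r = 0.861). For ARF10 they were CYP89A2 (AT1G64900, r = 0.837), the bZIP factor TGA4 (AT5G10030, r = 0.832) and the abscisic acid receptor PYL10 (AT4G27920, r = 0.781). For ARF2 they were CYP711A1, the strigolactone enzyme MAX1 (AT2G26170, r = 0.767), RAN2 (AT5G20020, r = 0.746) and SDG2 (AT4G15180, r = 0.745). These r run over 11 group means and are a description only.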
